A study of Homo sapiens with 4 samples.

Results

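The protein disulfide isomerases (PDIs) and the oxidation machinery of the endoplasmic reticulum (ER) were followed in A549 cells, a human lung adenocarcinoma line, transduced with a virus that expresses FCN3. The set held 10 genes, taken by symbol, with earlier results of these data known: P4HB, PDIA3, PDIA4, PDIA5, PDIA6, TXNDC5, TXNDC12, ERP29, ERP44 and ERO1L (the older symbol of ERO1A). All 10 were found among the 25192 genes of the deposited tables, and all 10 were among the 14099 genes that passed the filter on low counts. The 4 libraries were 2 from cells given the control empty virus (EV), which per the methods carried GFP alone, and 2 from cells given the retrovirus with V5-tagged FCN3, a secreted lectin. RNA was taken 48 h after infection in both groups. The comparison asked which genes changed upon ectopic expression of FCN3 in a single cell line. The labels do not say whether the replicates came from separate cultures, so p-values measure only the spread between these libraries, which may be technical. In bulk RNA, more transcript per cell and more cells with the transcript cannot be told apart.

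Secreted and membrane proteins receive their disulfide bonds in the ER lumen. The PDIs carry thioredoxin-like domains whose active sites hold a pair of cysteines; these pass a disulfide to a client protein or rearrange a wrong one. ERO1 oxidases then re-oxidize the PDIs and hand the electrons to oxygen. P4HB is the archetypal PDI and also a subunit of collagen prolyl 4-hydroxylase, PDIA3 works on glycoproteins with the lectins calnexin and calreticulin, PDIA6 is known as a partner of the chaperone HSPA5, and PDIA4 is a larger family member with an additional active site. ERP29 lacks an active-site cysteine pair, and ERP44 keeps a single active-site cysteine with which it retains ERO1 and other clients in the early secretory pathway.

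The coding sequences show how the family divides. In the GENCODE reference transcripts on GRCh37, cysteine codons with 2 other codons between them were searched in frame, a pattern found in 28.9% of 18752 coding sequences. There were 3 such pairs in PDIA4 (645 codons), PDIA5 (519) and TXNDC5 (432), 2 in P4HB (508), PDIA3 (505), PDIA6 (440) and ERO1L (468), 1 in TXNDC12 (172), and 0 in ERP29 (261) and ERP44 (406). The sites below are shown as examples of the common form (P4HB and PDIA4) and of sites that depart from it (the others); capitals mark the codons from the first to the second cysteine, all lines read 5′ to 3′ on the coding strand, and in lines marked with an intron the coordinates span it.
P4HB, first site, chr17:79817232-79817261, minus strand: gccccttggTGTGGCCACTGCaaggctctg
PDIA4, last site, chr7:148701141-148701170, minus strand: gcgccatggTGCGGGCACTGCaagcagcta
PDIA5, first site, chr3:122829845-122835100, plus strand, with an intron: gccccctggTGCAGCATGTGCaagaggatg
PDIA5, last site, chr3:122869205-122873840, plus strand, with an intron: gccccttggTGCCCACACTGTaagaaggtc
TXNDC12, only site, chr1:52493016-52494274, minus strand, with an intron: aaatcctggTGTGGAGCTTGCaaagctcta
ERO1L, second site, chr14:53113105-53113134, minus strand: tgtgttggtTGTTTTAAATGTcgtctgtgg
Between the cysteine codons stood a glycine and then a histidine codon at 13 of the 18 sites, among them all sites of P4HB, PDIA3, PDIA4, PDIA6 and TXNDC5. The exceptions were 2 of the 3 PDIA5 sites, both of which are shown, the TXNDC12 site and both ERO1L sites.

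**Figure D1:**
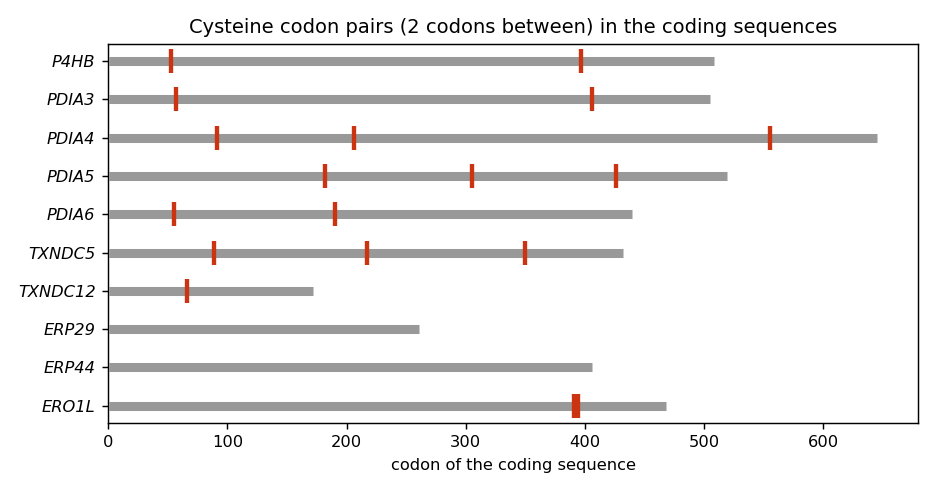
Each grey bar is the coding sequence of a gene on a scale of codons, and each red mark is a pair of cysteine codons with 2 codons between them. PDIA4, PDIA5 and TXNDC5 carry 3 marks, while ERP29 and ERP44 carry 0; the 2 pairs of ERO1L overlap at codons 391 and 394.

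The libraries held between 16353554 and 35733735 expected counts, with replicate 1 deeper than replicate 2 in each group. FCN3 had expected counts of 1 and 0 in the EV libraries and of 722388 and 448352 with the FCN3 virus, where it took 4.16% and 4.47% of all TPM (RSEM's relative transcript abundance, which corrects for transcript length). Of the epithelial markers, KRT7, KRT8 and KRT18 were at 1612 TPM or more in every library. KRT19 was at 32.6 and 52.4 TPM in EV cells against 87.2 and 97.9 TPM, CDH1 at 6.06 and 9.53 against 3.35 and 6.79 TPM, and EPCAM at 2.66 and 3.65 against 1.09 and 1.61 TPM. None of the 6 was called in edgeR, where 1 was higher and 1 lower at an unadjusted p under 0.05. DESeq2 called 1 higher and 0 lower, against 612 higher of all 14099 tested genes. The edgeR fit with the replicate number as a block called KRT19 (adjusted p = 6.2e-20), KRT8 and KRT18 higher. It called CDH1 (3.2e-06) and EPCAM (1.6e-04) lower, where 19.1% of all tested genes were called higher and 17.1% lower. Of 4 immune, 3 endothelial and 3 fibroblast markers, CD68 was at 33.9 and 35.7 TPM in EV cells against 61.9 and 49.8 TPM. It was not called in edgeR (adjusted p = 0.0357), but was called higher in DESeq2 and in edgeR with the block (adjusted p = 5.6e-13). COL1A1 lay between 2.70 and 8.12 TPM without separating the groups. The other 8 stayed at or below 0.41 TPM, with PTPRC and LYZ at 1 count or fewer and CD3E and PECAM1 at 0. The part of the differences in CD68, KRT19, CDH1 and EPCAM in the values below was not tested.

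Of the 10 genes, 9 had higher values with the FCN3 virus, by up to 5.94-fold for PDIA4, and TXNDC12 showed no detectable difference. Rounded expected counts were compared with edgeR's quasi-likelihood test, with p-values adjusted by Benjamini-Hochberg over all 14099 genes and a threshold of 0.01. PDIA4, PDIA3, PDIA6, P4HB and ERP44 were called up-regulated, 5 of the 10, where 0.738% of all tested genes were called in this direction. None was called down-regulated in edgeR (0.227% of all tested genes), 0 at an unadjusted p under 0.05 and 0 in DESeq2. The median log2 fold change was 1.06 over the 10 genes and 0.02 over all tested genes. The replicate number that libraries share in the labels was also added to edgeR's model as a block. Then 9 of the 10 were called up-regulated, with TXNDC12 the exception, and that fit called 19.1% of all tested genes up-regulated and 17.1% down-regulated. It left 1 residual degree of freedom, so its small p-values rest on a spread modelled across genes. What a replicate number shares is not given. Without any model, the groups did not overlap for any of the 10 genes: the FCN3 libraries were the higher ones for 9 (28.0% of all tested genes) and the lower ones for TXNDC12 (26.5%).

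**Figure D2:**
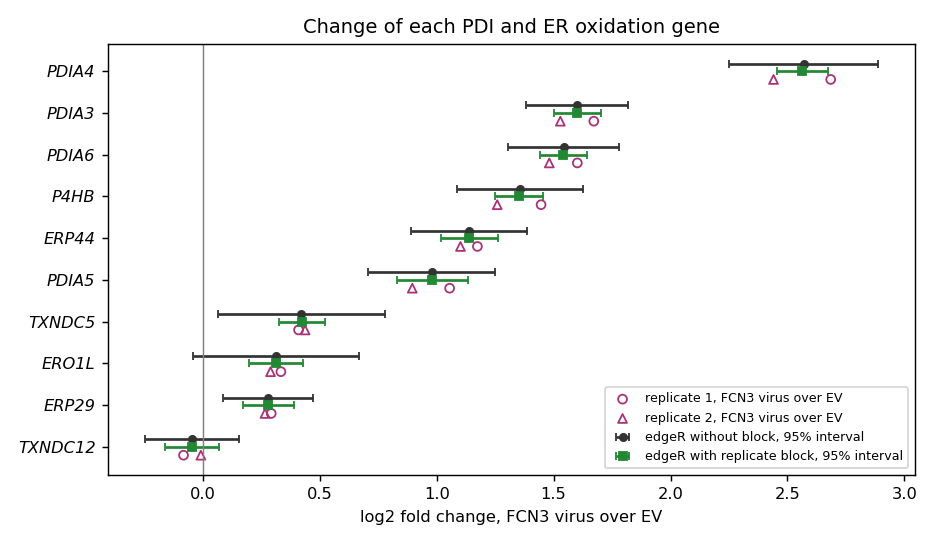
Log2 fold changes (FCN3 virus over EV, horizontal axis) of the 10 genes with 95% intervals from edgeR without (black) and with (green) the replicate block, and, as open symbols, the log2 ratios of the libraries that share a replicate number. PDIA4 stands at 2.57, the other called genes between 1.14 and 1.60, and TXNDC12 at -0.05 with an interval across 0.

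The 4 PDIs of highest TPM in EV cells were all called. PDIA4 (chromosome 7 of GRCh37, 148700154 to 148725754) was at 361 and 351 CPM (expected counts scaled to the TMM-normalized library size) in EV replicates 1 and 2 and at 2322 and 1907 CPM in FCN3 replicates 1 and 2. Both FCN3 libraries were thus far above both EV libraries, and replicate 1 was the higher of them. The log2 fold change was 2.57 (5.94-fold, standard error (SE) 0.13, adjusted p = 0.00193 from edgeR), which ranked 63 among all tested genes. Within replicate numbers 1 and 2 it was 2.68 and 2.44.

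PDIA3, the glycoprotein oxidoreductase on chromosome 15 (44038592 to 44065477), was at 387 and 409 CPM in EV cells and at 1233 and 1180 CPM with the FCN3 virus. The libraries of each group differed little, and the groups did not overlap. Its log2 fold change was 1.60 (3.03-fold, SE 0.09, adjusted p = 0.00246 from edgeR). The table also lists PDIA3P, a pseudogene copy, with expected counts of 102 and 53.5 in EV cells against 190 and 128, and RSEM divides reads that fit both. After the counts of the copy were added to PDIA3, a setting chosen after the data were seen, the log2 fold change was again 1.60.

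PDIA6 (chromosome 2, 10923517 to 10978103) was at 500 and 489 CPM in EV cells against 1518 and 1365 CPM, a log2 fold change of 1.54 (2.91-fold, SE 0.09, adjusted p = 0.00296 from edgeR). P4HB (chromosome 17, 79801035 to 79818732) was at 769 and 755 CPM in EV cells against 2095 and 1806 CPM, a log2 fold change of 1.36 (2.56-fold, SE 0.11, adjusted p = 0.00542 from edgeR). In both genes the EV libraries lay close together, and FCN3 replicate 1 was above FCN3 replicate 2. The 95% interval of the log2 fold change of PDIA4 (2.25 to 2.89) did not meet those of PDIA3 (1.38 to 1.82), PDIA6 (1.305 to 1.78) or P4HB (1.09 to 1.63), which overlapped each other. The differences between genes were not tested.

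PDIA5, TXNDC5 and TXNDC12 were not called in edgeR without the block. PDIA5 (chromosome 3, 122785872 to 122944074) was at 21.3 and 23.8 CPM in EV cells and at 44.3 and 44.3 CPM with the FCN3 virus. The groups did not overlap, yet the gene missed the threshold (log2 fold change 0.98, SE 0.11, adjusted p = 0.0122 from edgeR, and 5.1e-16 with the replicate block). DESeq2 without a block called PDIA5 higher (adjusted p = 2.0e-07). With EV replicate 2 left out, the adjusted p from edgeR was 0.00902, in a fit where the lone EV library is assumed to vary like the FCN3 libraries.

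TXNDC5 (chromosome 6, 7881750 to 7911021), a PDI with 3 thioredoxin domains, was at 306 and 249 CPM in EV cells and at 406 and 337 CPM with the FCN3 virus. Replicate 1 was above replicate 2 in both groups, by 0.30 and 0.27 on the log2 scale. The log2 fold change was 0.42 (95% interval 0.06 to 0.78, adjusted p = 0.147 from edgeR), and 0.41 and 0.44 within replicate numbers 1 and 2 (adjusted p = 3.3e-10 with the block). Reads of the read-through gene BLOC1S5-TXNDC5 cannot be separated cleanly from those of TXNDC5. Its expected counts were 0 and 0 in EV cells against 13.4 and 125 with the FCN3 virus, and adding them to TXNDC5 gave a log2 fold change of 0.43 (adjusted p = 0.129 from edgeR).

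TXNDC12 (chromosome 1, 52485803 to 52520863), a small luminal thioredoxin-like protein, was at 89.8 and 87.0 CPM in EV cells and at 84.8 and 86.5 CPM with the FCN3 virus. The FCN3 libraries were the lower ones, and FCN3 replicate 2 lay next to EV replicate 2. Its log2 fold change was -0.05 (95% interval -0.25 to 0.16, adjusted p = 0.77 from edgeR, and 0.536 with the block), so that a change by as much as that of PDIA5 lay outside the interval.

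ERP44 (chromosome 9, 102741467 to 102861334), which retrieves ERO1 and unfinished disulfide-linked proteins, was at 47.7 and 45.0 CPM in EV cells and at 108 and 96.5 CPM with the FCN3 virus. No library of a group came near those of the other, and the gene was called (log2 fold change 1.14, 2.20-fold, SE 0.10, adjusted p = 0.0070 from edgeR). Without FCN3 replicate 1 it was not called (log2 fold change 1.06, adjusted p = 0.0179 from edgeR), in a fit where the lone FCN3 library is assumed to vary like the EV libraries. ERP29 (chromosome 12, 112451152 to 112461253), which takes part in folding of secretory proteins without an active-site cysteine pair, was at 115 and 115 CPM in EV cells against 141 and 138 CPM. Its libraries agreed closely within each group, the log2 fold change was 0.28 (95% interval 0.09 to 0.47), and it was not called (adjusted p = 0.0959 from edgeR, and 2.5e-05 with the block).

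ERO1L (chromosome 14, 53106633 to 53162618), the widely expressed ERO1 oxidase, was at 85.3 and 71.7 CPM in EV cells and at 108 and 87.7 CPM with the FCN3 virus. EV replicate 1 and FCN3 replicate 2 lay close together, and replicate 1 was the higher in both groups. The log2 fold change was 0.31 (95% interval -0.04 to 0.67, adjusted p = 0.247 from edgeR). Within replicate numbers it was 0.33 and 0.29 (adjusted p = 1.1e-05 with the block).

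Levels between genes were compared per length, in TPM. In EV cells the order was P4HB (585 and 569 TPM), PDIA6 (425 and 412), PDIA3 (246 and 257), PDIA4 (238 and 229), TXNDC5 (183 and 148), ERP29 (163 and 161), TXNDC12 (73.8 and 70.9), ERO1L (49.8 and 41.5), PDIA5 (23.2 and 25.9) and ERP44 (18.6 and 17.4). TXNDC5 and ERP29 were the only neighbours in this order whose libraries overlapped. With the FCN3 virus PDIA4 (1406 and 1174 TPM) stood second, after P4HB (1466 and 1284 TPM) and before PDIA6 (1185 and 1083 TPM), and its libraries overlapped those of both.

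**Figure D3:**
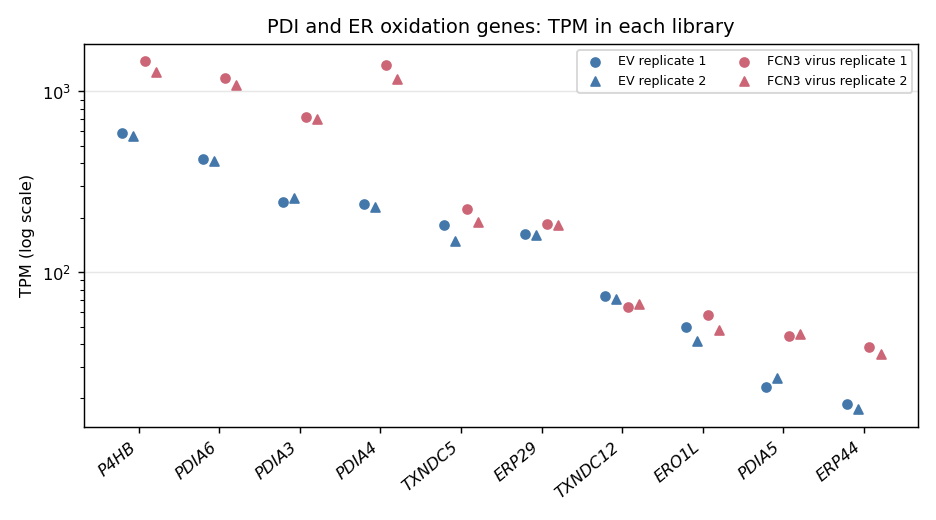
TPM (vertical axis, log scale) of the 10 genes in the 4 libraries, ordered by their mean in EV cells; colours stand for the groups and symbols for the replicate numbers. PDIA4 moves from 238 and 229 TPM to 1406 and 1174, while the points of TXNDC12 stay between 64.1 and 73.8.

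Summed over the 10 genes, the level was 2005 and 1932 TPM in EV cells and 5389 and 4809 TPM with the FCN3 virus, or 0.200% and 0.193% of all transcripts against 0.539% and 0.481%. The make-up of this sum shifted toward PDIA4, which supplied 11.9% and 11.9% of it in EV cells and 26.1% and 24.4% with the FCN3 virus. P4HB supplied 29.2% and 29.5% against 27.2% and 26.7%, and PDIA6 21.2% and 21.3% against 22.0% and 22.5%. TXNDC5 went from 9.13% and 7.64% of the sum to 4.15% and 3.92%, and ERP29 from 8.13% and 8.35% to 3.41% and 3.81%. Their own levels did not fall. TXNDC5 was at 183 and 148 TPM in EV cells against 223 and 189 TPM, and ERP29 at 163 and 161 against 184 and 183 TPM. These shares are given as a description, with no test.

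**Figure D4:**
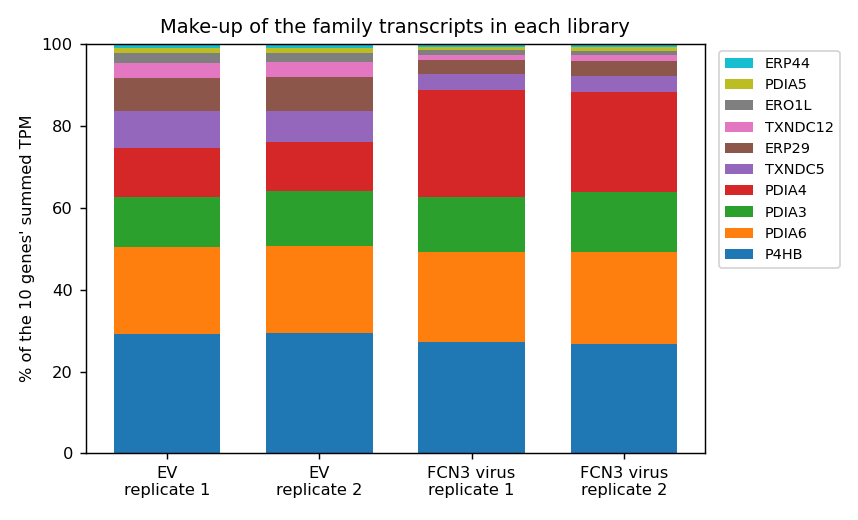
Share of each gene in the summed TPM of the 10 genes (vertical axis, %) in each of the 4 libraries. The PDIA4 band widens from 11.9% in both EV libraries to 26.1% and 24.4% with the FCN3 virus, while the P4HB band stays between 26.7% and 29.5%.

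Of the ERO1 oxidases, ERO1LB was called in edgeR without the block and ERO1L was not. With the block both were called higher (adjusted p = 7.2e-22 for ERO1LB and 1.1e-05 for ERO1L). P4HB transcripts numbered 11.8 and 13.7 per ERO1L transcript (ratio of TPM) in EV cells and 25.4 and 26.9 with the FCN3 virus. ERO1LB, the second ERO1 oxidase, was at 11.3 and 12.5 CPM in EV cells and at 41.3 and 33.9 CPM with the FCN3 virus, and was called (log2 fold change 1.67, 3.18-fold, adjusted p = 0.00788 from edgeR). Its 95% interval (1.29 to 2.04) did not meet that of ERO1L, although the difference between these genes was not tested. ERO1L still exceeded ERO1LB in TPM, 11.7-fold and 8.90-fold in EV cells and 4.05-fold and 4.02-fold with the FCN3 virus. For the 7 enzymes with cysteine pairs other than ERO1L, the summed TPM per TPM of ERO1L and ERO1LB together was 32.8 and 37.1 in EV cells against 71.0 and 76.1.

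Other genes of disulfide chemistry in the ER gave smaller counts. Of 13 further PDI family genes 10 were tested (median 0.26 on the log2 scale). DNAJC10 alone was called up-regulated in edgeR, where 0.738% of all tested genes were. DESeq2 called 3 of the 10 higher, against 612 of all 14099 tested genes. DNAJC10, a reductase that acts in ER-associated degradation, was at 186 and 185 CPM in EV cells against 447 and 436 CPM (log2 fold change 1.25, adjusted p = 0.00296 from edgeR). AGR2, an isomerase of mucin-producing cells, was at 22.9 and 26.0 CPM against 140 and 81.5 CPM, the highest log2 fold change of this list (2.19, SE 0.27), and was not called (adjusted p = 0.0157 from edgeR). Its FCN3 libraries lay 0.78 apart on the log2 scale, and within replicate numbers 1 and 2 its log2 ratio was 2.61 and 1.65. With the block AGR2 was called higher (adjusted p = 1.0e-25), as were DNAJC10 (1.6e-27), TXNDC11 (1.8e-14), TXNDC15 (5.8e-08) and PDIA2 (0.00313). PDIA2 had expected counts of only 6 and 4 in EV cells against 15 and 23. TXNDC11 was at 0.77 (adjusted p = 0.0171), the membrane-bound TMX1 at -0.09 (adjusted p = 0.773) and TXNDC16, the lowest of the list, at -0.18 (adjusted p = 0.718) on the log2 scale in edgeR. PDILT, AGR3 and ERP27 had at most 4 counts in any library and were not tested.

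Of 11 further ER thiol redox genes 10 were tested (median 0.11). ERO1LB was the gene called in edgeR, where 0.738% of all tested genes were called up-regulated. DESeq2 called 1 gene higher, against 612 of all 14099 tested genes. PRDX4, the ER peroxiredoxin that uses hydrogen peroxide to make disulfides, was at 143 and 127 CPM in EV cells against 139 and 123 CPM, a log2 fold change of -0.04 (95% interval -0.31 to 0.23, adjusted p = 0.845 from edgeR). On the same scale GPX8 was at 0.21 (adjusted p = 0.331), QSOX1, a sulfhydryl oxidase, at 0.31 (adjusted p = 0.253), SEP15 at 0.14 (adjusted p = 0.637) and VKORC1, of the vitamin K cycle, at -0.41 (adjusted p = 0.0645 from edgeR). With the block, ERO1LB, QSOX1 (adjusted p = 7.9e-06), SELM (1.1e-06) and GPX8 (0.00546) were called higher. VKORC1 (2.8e-06) and SEPN1 (0.00294) were called lower in that fit. GPX7 had 2 counts in FCN3 replicate 1, 0 in the other libraries, and was not tested.

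Genes that work with the set were split. Of 12 listed partners and retrieval receptors 11 were tested, and the median was 0.31 on the log2 scale. In edgeR 2 were called up-regulated (0.738% of all tested genes). In DESeq2 4 were called higher, against 612 of all 14099 tested genes. HSPA5, the ER HSP70 chaperone, had a log2 fold change of 3.19 (SE 0.12, adjusted p = 9.9e-04) and CALR, a lectin partner of PDIA3, of 1.42 (SE 0.12, adjusted p = 0.00594 from edgeR). CANX, the membrane-bound lectin partner, was at 1104 and 931 CPM in EV cells against 2350 and 2003 CPM (log2 fold change 1.10, adjusted p = 0.0151 from edgeR, and 1.3e-25 with the block). The alpha subunits that join P4HB in collagen prolyl 4-hydroxylase were not called, with log2 fold changes of 0.20 for P4HA1, 0.39 for P4HA2 and -0.52 for P4HA3, the lowest of the list (adjusted p = 0.396, 0.139 and 0.353 from edgeR). With the block, P4HA2 was called higher (adjusted p = 2.6e-06) and P4HA3 lower (4.1e-05), while P4HA1 was not called (0.0154). P4HB transcripts per transcript of these 3 subunits numbered 7.29 and 5.81 in EV cells and 15.6 and 13.9 with the FCN3 virus. KDELR2 and KDELR3, receptors that return ER proteins from the Golgi, had log2 fold changes of 0.31 and 0.85 (adjusted p = 0.147 and 0.0233 from edgeR, and 9.6e-07 and 2.9e-11 with the block). KDELR1, the remaining receptor of this kind, named after its values were seen, was at -0.03 (adjusted p = 0.88 from edgeR, and 0.712 with the block). MTTP, another protein that pairs with P4HB, had at most 2 counts in any library and was not tested.

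Thiol redox genes of the cytosol, nucleus and mitochondria served as a contrast. All 15 were tested, and the median log2 fold change was 0.01. In edgeR 0 were called, where 0.738% of all tested genes were called higher and 0.227% lower. At an unadjusted p under 0.05 from edgeR, 1 was higher and 1 lower. DESeq2 called 1 higher, against 612 of all 14099 tested genes. TXN, cytosolic thioredoxin, was at 594 and 591 CPM in EV cells against 663 and 656 CPM (log2 fold change 0.16, adjusted p = 0.28 from edgeR). TXNRD1, its reductase, had the highest value of the list, 0.37 (adjusted p = 0.0828), and GLRX5, of mitochondrial iron-sulfur assembly, the lowest, -0.34 (adjusted p = 0.09 from edgeR). With the block, TXN (adjusted p = 0.00615), TXNRD1 (1.1e-08) and GLRX3 (0.00105) were called higher and GLRX5 (1.0e-05) and NXN (0.00741) lower. With the replicate block, edgeR called 3 of the 15 higher and 2 lower, against 5 and 0 of the 10 other PDI family genes, 4 and 2 of the 10 ER thiol redox genes and 6 and 2 of the 11 partners. Over all tested genes that fit called 19.1% higher and 17.1% lower, so that the counts for the genes outside the ER lie near this background.

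**Figure D5:**
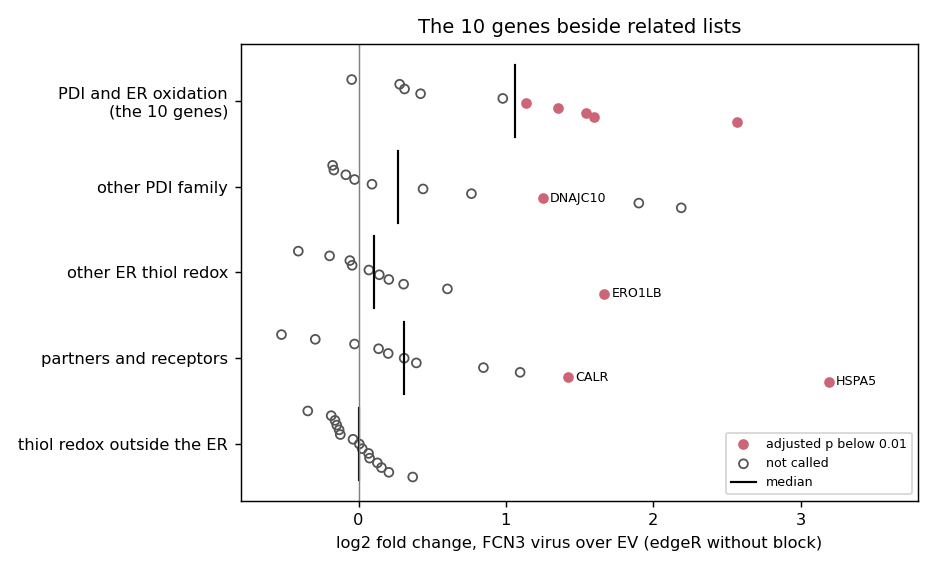
Log2 fold change (FCN3 virus over EV, edgeR without block, horizontal axis) of each tested gene of the set and of 4 related lists; filled points passed an adjusted p of 0.01 and vertical lines are medians. The medians are 1.06, 0.26, 0.11, 0.31 and 0.01 from top to bottom, and the genes outside the ER lie between -0.34 and 0.37.

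Promoter sequences were searched on both strands for the letters of response elements known from ER stress, in RefSeq windows of 300 bases around start sites on GRCh38.p14, most of each window lying before the start. Windows were found for 9 of the 10 genes, 13 windows in all, and PDIA3 had no entry. ERSE (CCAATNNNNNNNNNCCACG), an element read by ATF6 and XBP1, was in 0.0769% of 35116 windows, and of the 9 genes PDIA6 held it. UPRE (TGACGTGG), an XBP1 element, was in 0.729% of windows, and TXNDC5 held it in 1 of its windows. ERSE-II (ATTGGNCCACG) and CARE (TGATGNAA), an ATF4 element, were in 0.0541% and 3.62% of windows and in 0 of these 13. The windows of ERO1LB and DNAJC10 held an ERSE and a UPRE, both on the opposite strand. Of the related genes that were not called, CANX held an ERSE, the same bases seen in 3 overlapping windows. TXNDC11 and KDELR3 held a UPRE and GPX8 a CARE. The bases around the matches are printed because they include a called PDI, the called oxidase and the called reductase; capitals mark the match, all bases lie before the start site, and no match overlapped another. CGTGG, the end of UPRE, is also the reverse complement of the end of ERSE and ERSE-II.
PDIA6, ERSE, chr2:10812823-10812901, minus strand: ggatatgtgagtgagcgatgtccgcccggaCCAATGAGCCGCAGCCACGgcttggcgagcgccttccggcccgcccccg
TXNDC5, UPRE, chr6:7910132-7910199, minus strand: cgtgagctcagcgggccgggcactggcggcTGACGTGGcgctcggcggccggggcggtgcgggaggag
ERO1LB, ERSE, chr1:236282153-236282208, minus strand: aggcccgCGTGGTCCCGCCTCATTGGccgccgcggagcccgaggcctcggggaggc
DNAJC10, UPRE, chr2:182716102-182716169, plus strand: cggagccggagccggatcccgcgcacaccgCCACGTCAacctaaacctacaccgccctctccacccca
PDIA6 had 2 windows, and its ERSE match was in 1 of them, 86 to 68 bases before the start site of that window. Among all genes with a window, 25 held an ERSE; 16 of them were tested, 10 were called up-regulated, PDIA6, ERO1LB, CALR and HSPA5 among them, and their median log2 fold change was 1.33. For UPRE, 6 of 120 tested genes were called up-regulated, with a median of 0.14. For ERSE-II these were 3 of 13 (median 0.03), and for CARE 7 of 274 (median 0.10). Over all tested genes, 0.738% were called up-regulated, with a median of 0.02. Whether any of these elements acts in these cells was not tested. P4HB, PDIA4 and ERP44, also called, held none of the 4 motifs in these windows, which says only that these exact letters were not there.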

How the data were processed

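Poly(A) RNA libraries of A549 cells (2 EV, 2 FCN3 virus) were compared. Per the methods, adapters were removed by the authors before alignment to hg19 (STAR 2.6.1d, as also in the submitters' processing notes), and RSEM gave the abundances, with RefSeq transcripts as the tables name them. The deposited values used were RSEM's expected counts, which were not normalized, and TPM, which RSEM normalized for length and depth. FPKM was not used. The strand setting of the counting is not given in the sources used here. Depth ranged from 16353554 to 35733735 expected counts per library. A floor of 3 counts was 0.084 to 0.183 CPM, for counting error alone.

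After rounding, the expected counts were tested in R 4.3.3 with edgeR 4.0.16 (TMM, filterByExpr, quasi-likelihood test, Benjamini-Hochberg adjustment, FDR 0.01), a test tried on simulated data before use. The SE was taken as |log2 fold change| over the root of edgeR's F. The other settings were DESeq2 1.42.0, RLE factors, other filters, the replicate block, FCN3 left out, an effective-length offset, the legacy method, limma 3.58.1 on log2(TPM + 1) and log2(TPM + 0.1), an FDR of 0.05 and each library left out. The members, the related lists and the rule for named genes (all members, 20 listed genes, and the highest and lowest gene of each related list) were chosen with earlier results of these data known. Coding sequences and gene positions came from GENCODE on GRCh37, the build of hg19, and promoters from RefSeq on GRCh38.p14.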

Additional observations from a re-analysis of the deposited data

How the results depend on the processing

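All 10 log2 fold changes kept their sign under the settings tried, leaving out each library included. PDIA3, PDIA4, PDIA6 and P4HB kept their calls under every setting. ERP44 lost its call in limma on log2(TPM + 1) (adjusted p = 0.0139), on log2(TPM + 0.1) (0.0122) and without FCN3 replicate 1. The median over the 10 genes was 1.06, and 0.92 and 0.95 in limma with pseudocounts of 1 and 0.1, where the median of all tested genes was -0.07 and -0.09.

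In the main edgeR comparison, 136 of all tested genes, 5 of the set and 4 of the related lists were called. With the replicate block the counts were 5103, 9 and 24, with DESeq2 1086, 6 and 9, with DESeq2 and the block 2258, 9 and 16, and at an FDR of 0.05 they were 1014, 6 and 8. Leaving out each library in turn gave 92 to 267 of all genes (267 without EV replicate 2), 4 to 6 of the set, 4 to 5 of the related lists and medians of 1.02 to 1.09. In these fits the arm with 1 library is assumed to vary like the other arm. The labels give the groups the same replicate numbers but not what a number shares. Over 8310 genes (average log2 CPM over 4), the difference of EV replicates 1 and 2 correlated with that of FCN3 replicates 1 and 2 (Pearson's r = 0.807, across genes, which are not independent). With the block, PDIA5, TXNDC5, ERP29 and ERO1L were called in addition. With 2 libraries a group, the precision of the spread is limited and rests on the model across genes.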
